A study of Mus musculus with 3 samples.

Results

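Interferon-stimulated genes were read in 3 cultures of the immortalized mouse embryonic fibroblast line NIH3T3 (strain NIH/Swiss), with 1 Affymetrix mouse genome array each. The members were 34 genes named by a list chosen with earlier results of these data known, so their counts beside all genes are descriptions only. A gene counted as measured when at least 1 probe set on the array was annotated with that gene and no other. This held for 32 of the 34, read by 54 probe sets, out of 18193 genes read by 34945 probe sets that name 1 gene. Ifi44 was not analysed here, and Isg15 was read only by a probe set that also names Gm9706. The control cells are labelled untransduced, although the study's methods also describe cells infected with an empty vector, so which of these was arrayed is uncertain. The other cultures carried wild-type mouse YAP, a transcriptional coactivator restrained by the Hippo pathway, or mtYAP, its S112A form, in which the serine at residue 112 is alanine and can no longer be phosphorylated there by the LATS kinases. Both forms were delivered by retrovirus and selected with puromycin, and all 3 cultures grew in medium with 10% calf serum. If the label holds, infection and selection separate both overexpressing cultures from the control, and their part in a difference from control cannot be told apart from that of YAP. The paper also reports that both overexpressing lines, unlike control, kept growing once confluent. Its array methods do not give the cell density at harvest. The part of density or growth state cannot be told apart here either. Each condition had 1 array and hence no replicate, which leaves the values without an error and allows no test. Both differences from control use the same control array.

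Interferons are secreted signals of infection. Type I interferons bind a receptor of IFNAR1 and IFNAR2, whose JAK1 and TYK2 kinases activate transcription factors, among them STAT2, which acts with IRF9 in a complex, ISGF3, that binds interferon-stimulated response elements (ISRE) in DNA. Interferon gamma acts on genes with gamma-activated sites (GAS) and through IRF1. The genes so induced encode sensors of viral RNA, proteins that block viral replication, and parts of antigen presentation, and many are also expressed at a low basal level in fibroblasts without added interferon.

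The DNA in front of several members is shown because it holds the response elements through which such genes are known to be induced. RefSeq windows of 300 bases (250 before the transcription start and 50 after it, build GRCm38.p6) were at hand for 27 of the 34 members, matched by symbol, and not for Dhx58, Zbp1, Usp18, Mx1, Mx2, Parp9 and Parp14. The 250 bases before the start are printed 5′ to 3′ on the strand of the gene, with matches to the ISRE letters in capitals for Ifit1, Ifit3, Gbp2, Stat2 and Bst2 and the match to the GAS letters in capitals for Irf1. The first 4 and Irf1 lay more than 2-fold lower in mtYAP than in control, while Bst2 did not lie lower on either array.
Ifit1, chr19:34640639-34640888, plus strand: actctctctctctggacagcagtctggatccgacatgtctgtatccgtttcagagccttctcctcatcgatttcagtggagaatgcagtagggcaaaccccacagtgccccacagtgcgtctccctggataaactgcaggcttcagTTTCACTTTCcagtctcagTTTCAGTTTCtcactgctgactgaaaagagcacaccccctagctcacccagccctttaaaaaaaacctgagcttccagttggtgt
Ifit3, chr19:34583279-34583528, plus strand: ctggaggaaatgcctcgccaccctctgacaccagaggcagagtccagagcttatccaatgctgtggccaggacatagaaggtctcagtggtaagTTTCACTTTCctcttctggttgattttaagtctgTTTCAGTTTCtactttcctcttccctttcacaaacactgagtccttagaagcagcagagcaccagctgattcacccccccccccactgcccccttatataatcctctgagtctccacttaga
Gbp2, chr3:142620413-142620662, plus strand: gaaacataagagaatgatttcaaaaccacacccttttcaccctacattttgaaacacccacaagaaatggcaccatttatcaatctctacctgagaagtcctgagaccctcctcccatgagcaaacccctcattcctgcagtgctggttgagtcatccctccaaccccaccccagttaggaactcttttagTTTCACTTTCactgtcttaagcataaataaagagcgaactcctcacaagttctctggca
Stat2, chr10:128270248-128270497, plus strand: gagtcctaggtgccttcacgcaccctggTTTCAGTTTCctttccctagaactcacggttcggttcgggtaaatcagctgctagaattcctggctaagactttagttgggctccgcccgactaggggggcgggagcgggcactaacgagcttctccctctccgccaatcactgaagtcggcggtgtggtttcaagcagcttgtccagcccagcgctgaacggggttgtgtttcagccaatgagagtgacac
Irf1, chr11:53769764-53770013, plus strand: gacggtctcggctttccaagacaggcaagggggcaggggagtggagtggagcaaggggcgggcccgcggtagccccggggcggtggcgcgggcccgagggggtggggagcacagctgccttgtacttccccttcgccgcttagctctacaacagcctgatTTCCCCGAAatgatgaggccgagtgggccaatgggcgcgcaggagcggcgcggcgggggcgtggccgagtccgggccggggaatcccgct
Bst2, chr8:71537473-71537722, minus strand: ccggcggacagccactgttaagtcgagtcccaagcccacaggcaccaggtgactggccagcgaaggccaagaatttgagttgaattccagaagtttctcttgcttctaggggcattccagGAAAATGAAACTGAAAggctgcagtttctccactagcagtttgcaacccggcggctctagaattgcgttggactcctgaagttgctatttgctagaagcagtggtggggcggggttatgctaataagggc

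The ISRE was searched on both strands as GAAA, any 2 bases and GAAA, and it was found in the windows of 13 of the 27 members (48.1%), compared with 1079 of 27025 genes (3.99%). Counting the last base before the start as −1, the matches began at −104 and −85 for Ifit1, at −156 and −122 for Ifit3, at −59 for Gbp2 and at −222 for Stat2. Overlapping matches began at −130 and −124 for Bst2. The others were Ddx58, Eif2ak2, Gbp3, Ifih1, Ifitm3, Isg15, Oas1a and Rsad2. The GAS letters, TTCNNNGAA, which read the same on both strands, were in the windows of 8 members (29.6%) and of 9.55% of all genes, with that of Irf1 beginning at −90. CATTCC, the core to which TEAD factors, the DNA-binding partners of YAP, are known to bind, was in 2 member windows (7.41%), those of Gbp2 and Bst2, and in 16.6% of all genes. In Bst2 the GAS match overlaps both an ISRE match and the CATTCC match. The ISRE was in 4 of 7 windowed members more than 2-fold lower in mtYAP than in control (57.1%). It was also in 8 of the 18 other measured members with a window (44.4%). The GAS letters were in 1 (14.3%) and 7 (38.9%) of these. The windows of Dtx3l and Xaf1, both more than 2-fold lower in mtYAP, held no ISRE match. A match describes the letters only.

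In cells overexpressing mtYAP, 8 of the 32 measured members (25%) lay more than 2-fold lower than in control, that is below a log2 difference of −1, compared with 4.06% of all genes. They were Gbp2, Parp9, Dtx3l, Ifit1, Ifit3, Xaf1, Irf1 and Stat2. No member lay above 1, where 3.77% of all genes did. Below 0 lay 26 members (81.2%) and 46.5% of all genes. The median of the members was −0.46, in a range of −2.615 to 0.35, and the median of all genes was 0.02. In bulk RNA, a lower level in each cell and fewer cells at a high level cannot be told apart.

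In cells overexpressing wild-type YAP, 1 member (3.12%), Ifih1, lay below −1, compared with 1.26% of all genes, and none lay above 1, compared with 1.36%. Below 0 lay 22 members (68.8%) and 50.2% of all genes. The median of the members was −0.20, in a range of −1.08 to 0.46, and that of all genes was −0.003. Ifih1 was read by 1 probe set below a level of 6 on every array. At a lower limit, a difference below −0.5, there were 13 members in mtYAP (40.6%) and 6 in YAP (18.8%), beside 11.5% and 5.36% of all genes.

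**Figure D1:**
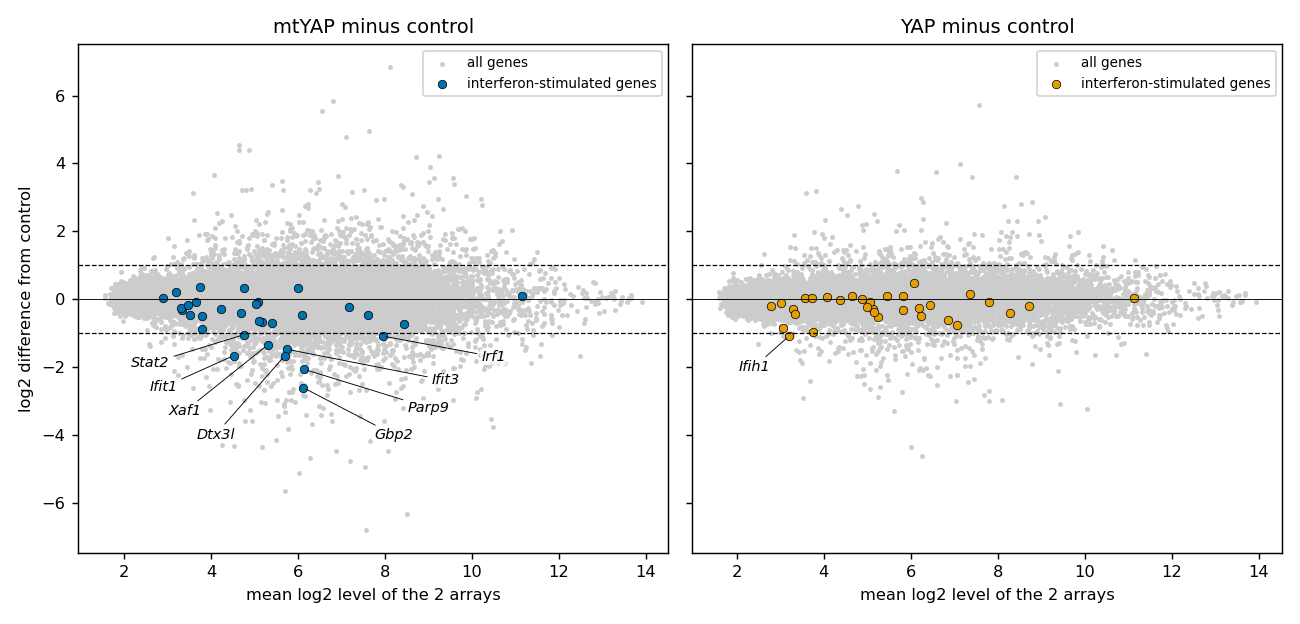
Log2 difference from control (vertical axis) against the mean log2 level of the arrays compared (horizontal axis) for 18193 genes in grey and 32 interferon-stimulated genes in colour, with mtYAP on the left and YAP on the right. Dashed lines mark differences of 1 and −1. Named are the 8 members below −1 in mtYAP and the 1 in YAP, and no member lies above 1 in either panel.

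Many members were near the background of the array. A level of 6 on the log2 scale, taken as clearly measured, was reached on all 3 arrays by 5 members, Irf1, Trim25, Ifit2, Ifitm3 and Ifi35, on some arrays by 6, Eif2ak2, Ifit3, Gbp2, Bst2, Parp9 and Dtx3l, and on none by 21. Of the members below −1 in mtYAP, Stat2, Ifit1 and Xaf1 stayed under 6 on every array, although 1 Xaf1 probe set read 6.19 in control. Among the 11 members that reached the level somewhere, 5 lay below −1 in mtYAP and none in YAP, beside 8.22% and 2.30% of the 7129 genes that did so. None lay above 1, beside 7.66% and 2.72%. Ifit3, Gbp2, Parp9 and Dtx3l passed the level through their higher arrays and not through mtYAP, so that these counts are a description and lend no support.

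**Figure D2:**
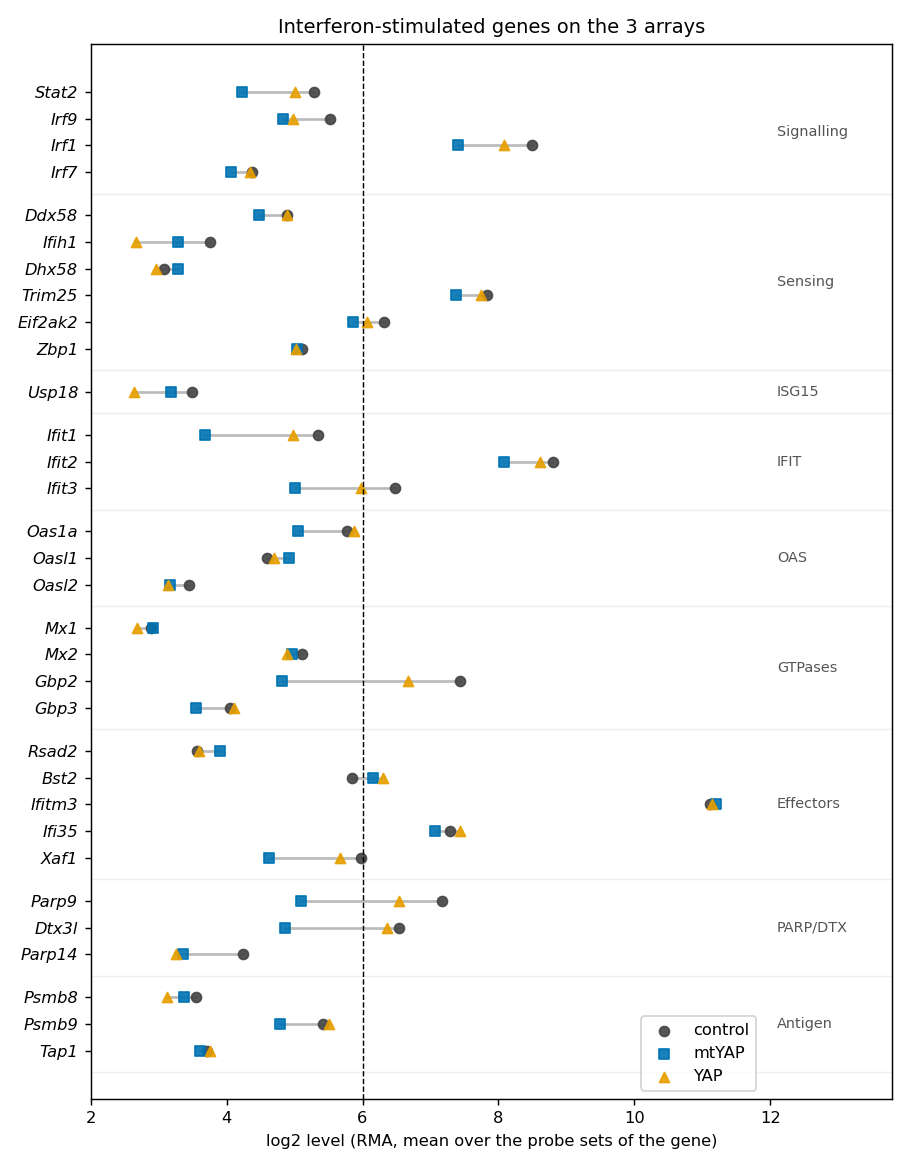
Log2 level (horizontal axis, mean over the probe sets of a gene) of the 32 measured members on the control, mtYAP and YAP arrays, grouped by role, with a dashed line at the level of 6. The mtYAP square is the leftmost symbol for Gbp2, Parp9, Dtx3l and all 3 Ifit genes, whereas the symbols of Ifitm3 nearly coincide.

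Among the regulators, all 4 measured members lay lower in mtYAP than in control and 2 of them below −1. Of all genes, 46.5% lay below 0 and 4.06% below −1 in mtYAP. Irf1, a transcription factor of the response to interferon gamma, had a level of 8.49 in control, 7.40 in mtYAP and 8.08 in YAP. It was clearly measured on every array and differed from control by −1.09 (2.13-fold lower) in mtYAP and −0.41 in YAP. Stat2, the STAT particular to the type I and type III responses, stood at 5.28 in control, 4.23 in mtYAP and 5.0 in YAP. It differed from control by −1.05 and −0.28, and its probe sets stood at −0.81 and −1.29 in mtYAP, so 1 of them lay inside the limit. Irf9, the DNA-binding partner of STAT2 in ISGF3, read 5.52, 4.83 and 4.98 in the same order of arrays, that is lower by similar amounts in both lines (−0.69 and −0.54). Irf7, which amplifies interferon production, read 4.37, 4.07 and 4.35, a difference of −0.30 in mtYAP and −0.02 in YAP.

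The sensors of foreign RNA differed less in mtYAP. None of the 6 lay beyond −1 or 1 in mtYAP, where 4.06% of all genes lay below −1 and 3.77% above 1. Their median was −0.43 in mtYAP and −0.11 in YAP. Trim25, the ubiquitin ligase that assists RIG-I, was clearly measured with levels of 7.84 in control, 7.38 in mtYAP and 7.74 in YAP. Its 3 probe sets all lay lower in mtYAP, between −0.56 and −0.40. Eif2ak2, the kinase PKR, which halts translation on double-stranded RNA, read 6.32, 5.86 and 6.06, with its probe sets between −0.61 and −0.36 in mtYAP and on both sides of 0 in YAP. For these genes the sign in mtYAP did not hang on 1 probe set, although the sizes were small.

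Ddx58, which encodes the sensor RIG-I, had levels of 4.88 in control, 4.47 in mtYAP and 4.88 in YAP as a mean. Its 3 probe sets disagreed. The probe set that reached a level of 6 went from 6.78 in control to 5.94 in mtYAP and 6.29 in YAP, differences of −0.84 and −0.49. Another stood at −0.87 and 0.16, and the third, near the background, at 0.48 and 0.33. Ifih1, the sensor MDA5, read 3.75 in control, 3.29 in mtYAP and 2.67 in YAP, a difference of −1.08 in YAP from 1 probe set whose levels are all below the median of the array, so that its size is uncertain. Dhx58, the related protein LGP2, read 3.08, 3.28 and 2.96, and Zbp1, a sensor of Z-form nucleic acid, read 5.12, 5.04 and 5.03, so both means lay within 0.2 of control on either array. The Dhx58 probe sets disagreed, since that with the highest level stood at −0.07 in mtYAP and −0.62 in YAP, the others lying between −0.06 and 0.36.

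Of the ISG15 system, which attaches a ubiquitin-like protein to targets and removes it again, Usp18 was measured alone. Usp18, the protease that removes ISG15 and also damps the receptor, read 3.49 in control, 3.18 in mtYAP and 2.63 in YAP, again lower in YAP than in mtYAP but close to the background. The probe set that Isg15 shares with Gm9706 read 5.08, 5.97 and 5.95, higher than control by 0.89 in mtYAP and 0.87 in YAP, which is the opposite direction to most members. Since that probe set does not name Isg15 alone, the gene is not counted among the members measured.

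The IFIT genes, whose proteins bind viral RNA and block its translation, all lay lower in mtYAP. Ifit1 read 5.35 in control, 3.68 in mtYAP and 4.97 in YAP, a difference of −1.67 (3.18-fold lower) in mtYAP and −0.38 in YAP. Ifit3 read 6.48, 5.0 and 5.98, a difference of −1.48 (2.79-fold lower) in mtYAP and −0.50 in YAP. Ifit2, clearly measured throughout, read 8.81, 8.08 and 8.61, a smaller difference of −0.73 in mtYAP and −0.20 in YAP. The order of the arrays was the same for all 3 genes, with control highest, YAP next and mtYAP lowest. Each was read by 1 probe set. The genes lie in one cluster, with Ifit2 and Ifit3 next to each other and 3 further genes (Ifit1bl1, Ifit3b and Ifit1bl2) between Ifit3 and Ifit1, and whether the Ifit3 and Ifit1 probe sets also read these relatives is not known here. The windows printed for Ifit1 and Ifit3 hold 2 ISRE matches each, and neither window of Ifit2 holds any.

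The oligoadenylate synthetases and their relatives, which sense double-stranded RNA and activate RNase L or act without it, showed no common direction. Oas1a read 5.77 in control, 5.05 in mtYAP and 5.87 in YAP, so that mtYAP lay lower than control by 0.72 and YAP did not. Oasl1 read 4.60, 4.92 and 4.70, slightly higher in mtYAP (0.32). Oasl2, its neighbour, read 3.44, 3.17 and 3.14, lower on both arrays by about the same small amount (−0.27 and −0.30). All of these levels were under 6.

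Among the GTPases, Gbp2 stood apart from the others. Gbp2, a guanylate-binding protein that attacks the vacuoles of intracellular pathogens, read 7.43 in control, 4.815 in mtYAP and 6.675 in YAP. Its difference of −2.615 (6.13-fold lower) was the lowest of any member in mtYAP, and in YAP it was −0.755 (1.69-fold lower). Both probe sets were close, at −2.72 and −2.51 in mtYAP and −0.81 and −0.70 in YAP. RefSeq places a related gene, Gbp2b, between Gbp3 and Gbp2, and whether the probe sets also read it is not known here. Gbp3 read 4.05, 3.55 and 4.11, a difference of −0.50 in mtYAP and 0.06 in YAP. The dynamin-like antiviral proteins Mx1 (2.88, 2.92 and 2.68) and Mx2 (5.11, 4.96 and 4.89) lay within 0.22 of control on both arrays, at levels under 6.

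The ADP-ribosylation members each lay lower in mtYAP than in control as a mean, although the probe sets of Parp14 disagreed. Parp9 was read by 1 probe set. Parp9, which forms a complex with the ubiquitin ligase DTX3L that strengthens interferon signalling, read 7.17 in control, 5.10 in mtYAP and 6.54 in YAP, a difference of −2.07 (4.20-fold lower) in mtYAP and −0.63 (1.55-fold lower) in YAP. Dtx3l read 6.53, 4.86 and 6.355, a difference of −1.67 in mtYAP and −0.175 in YAP, with its probe sets at −1.78 and −1.56 in mtYAP. These partners lie side by side with overlapping bounds in RefSeq, and Parp14 follows Dtx3l with no other protein-coding gene between. Parp14, a further member of the enzyme family, differed from this pair, at 4.235, 3.35 and 3.26, that is as low in YAP as in mtYAP. Its probe sets disagreed by more than 1, since one went from 5.34 in control to 3.52 in mtYAP and 3.31 in YAP (−1.82 and −2.03) while the other stayed near 3 on all arrays (0.05 and 0.08).

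Of the 6 members not lower than control in mtYAP, 3 are among the remaining effectors (Ifitm3, Bst2 and Rsad2), and the others are Dhx58, Oasl1 and Mx1. Ifitm3, a membrane protein that blocks the entry of enveloped viruses, read 11.11 in control, 11.20 in mtYAP and 11.15 in YAP, within 0.1 of control on both arrays. Bst2, tetherin, which holds budding virions at the cell surface, read 5.84, 6.16 and 6.30, higher than control by 0.32 in mtYAP and 0.46 in YAP. It is thus the member highest in YAP relative to control, and its window holds ISRE matches as those of Ifit1 and Ifit3 do. Ifi35 read 7.29, 7.06 and 7.44, with all 3 probe sets between −0.29 and −0.18 in mtYAP and between −0.02 and 0.25 in YAP. Rsad2, the antiviral enzyme viperin, read 3.56, 3.91 and 3.59 near the background, and its probe sets differed in sign. Xaf1, a proapoptotic protein that antagonizes XIAP, was the effector of this group furthest below control, with 5.975 in control, 4.62 in mtYAP and 5.665 in YAP, a difference of −1.355 (2.56-fold lower) in mtYAP and −0.31 in YAP. Of its probe sets one went from 6.19 in control to 4.25 in mtYAP (−1.94) and the other from 5.76 to 4.99 (−0.77).

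In antigen processing, the 3 members, proteasome subunits and a peptide transporter, lay within 1 of control on both arrays. Psmb9 read 5.42 in control, 4.78 in mtYAP and 5.50 in YAP, a difference of −0.64 and 0.08. Psmb8 read 3.55, 3.37 and 3.12, and Tap1 read 3.71, 3.61 and 3.75 as a mean. Only 1 of the 4 Tap1 probe sets reached a level of 6, with 6.02 in control, 5.88 in mtYAP and 6.31 in YAP. RefSeq places Psmb9 and Tap1 on opposite strands with starts so close that their promoter windows share 275 bases, but Psmb9 lay lower in mtYAP by more than Tap1 did (−0.64 and −0.095).

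**Figure D3:**
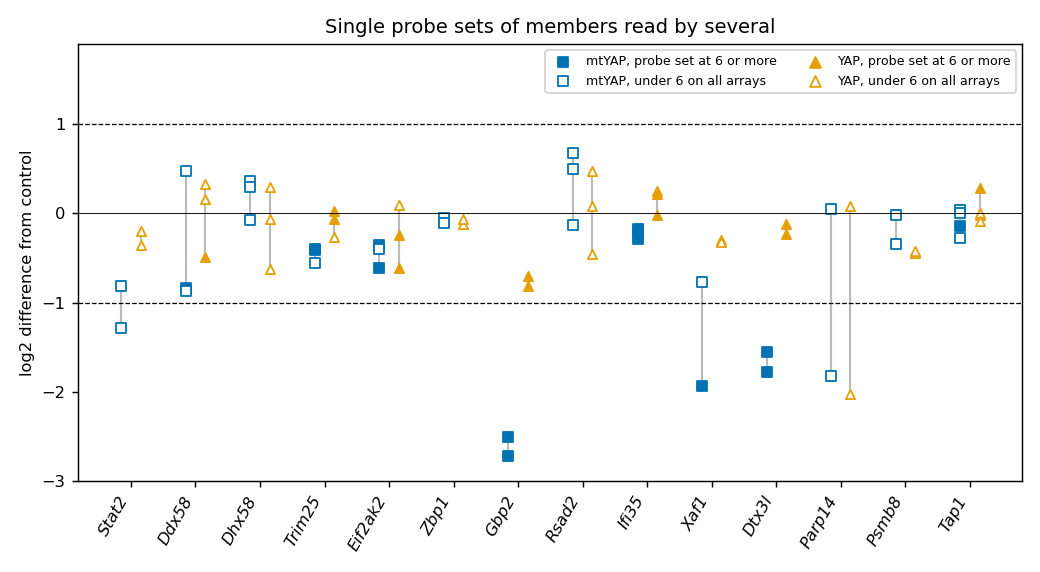
Log2 difference from control (vertical axis) of each probe set of the 14 members read by several, for mtYAP (squares) and YAP (triangles), filled where the probe set reached a level of 6 on at least 1 array and open where it did not. The probe sets of Gbp2 and Dtx3l lie close together, whereas those of Ddx58, Parp14 and Xaf1 lie more than 1 apart in mtYAP.

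Over the 14 members with several probe sets, the signs in mtYAP differed within 5 genes (Ddx58, Dhx58, Parp14, Rsad2 and Tap1) and in YAP within 8. In mtYAP the range exceeded 1 for 3 genes, Ddx58, Parp14 and Xaf1, and in YAP for 1, Parp14. None of the 5 genes with differing signs is among the members below −1 in mtYAP. Xaf1 is among them, with probe sets at −1.94 and −0.77.

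mtYAP and YAP can also be compared without the control array. In this comparison 5 of 32 members (15.6%) lay below −1, namely Gbp2 at −1.86 (3.63-fold lower in mtYAP than in YAP), Dtx3l at −1.495, Parp9 at −1.44, Ifit1 at −1.29 and Xaf1 at −1.045, beside 1.42% of all genes. None lay above 1, beside 0.748%. Below 0 lay 20 members (62.5%) and 44.8% of all genes, and the median was −0.24, against 0.025 over all genes. Of the 11 members that reached a level of 6, 3 lay below −1 (Gbp2, Dtx3l and Parp9), beside 3.06% of such genes, and none above 1, beside 1.33%. All 3 passed that level through their control and YAP arrays and not through mtYAP, so this count too lends no support. At the other end, Ifih1 stood at 0.62 and Usp18 at 0.55, both near the background. In 13 members the control array was highest, YAP next and mtYAP lowest. These were 40.6% of the members, beside 22.7% of all genes (4130), and the order uses the shared control array. They were Stat2, Irf9, Irf1, Irf7, Trim25, Eif2ak2, Ifit1, Ifit2, Ifit3, Gbp2, Xaf1, Parp9 and Dtx3l.

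The rest of the pathway was read through lists. Of 8 interferon genes measured, among them Ifnb1 (3.62, 3.70 and 4.01 on the control, mtYAP and YAP arrays) and Ifng (2.38, 2.22 and 2.29), none reached a level of 6 or lay beyond −1 or 1, and the median was 0.035 for mtYAP and −0.025 for YAP. Of 10 receptors, kinases and STAT factors none lay beyond −1 or 1, with medians of −0.19 and 0.08. Stat3, which transmits the signal of interleukin 6 and related cytokines, read 7.70, 6.72 and 7.325, a difference of −0.985 in mtYAP. Ifnar1, a chain of the type I receptor, read 6.235, 5.50 and 6.05, and Ifngr2, a chain of the interferon gamma receptor, read 6.47, 5.955 and 6.025. Jak1, a kinase on both receptors, lay higher on both arrays, at 8.63, 9.08 and 9.12.

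Of 12 genes listed as negative regulators, 1 lay below −1 in mtYAP and none in YAP, beside 4.06% and 1.26% of all genes. The medians of the list were −0.21 and −0.04. That gene was Nlrc3, at −1.03 with levels under 6. Ptpn2, a phosphatase that acts on JAK1, differed by 0.77 in mtYAP and by 0.315 in YAP. Irf2bp2, a corepressor of IRF2, stood at −0.58 and −0.335, and Socs3, a feedback inhibitor of cytokine receptors, at −0.32 and −0.01. Isg20, at 0.40 and 0.64, was put in this list although it is known as an antiviral exonuclease. These genes thus went both ways.

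A list of 12 further genes of nucleic acid sensing, mostly adaptors, kinases and transcription factors, had medians of −0.325 and −0.225. Of these, 1 gene lay below −1 in mtYAP and none in YAP, beside 4.06% and 1.26% of all genes. It was Tlr3, a receptor for double-stranded RNA, at −1.28 with levels under 6. Ikbke, a kinase of IRF3, read 6.45 in control, 5.45 in mtYAP and 6.19 in YAP, a difference of −1.0 that lies on the limit. Ticam1, the adaptor of TLR3, stood at −0.58 and 0.27, Mavs, the mitochondrial adaptor of RIG-I and MDA5, at −0.525 and −0.24, and Zc3hav1, the antiviral zinc finger protein ZAP, at 0.89 and 0.70.

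Of 13 genes of MHC class I presentation, 3 lay below −1 in mtYAP and 1 did so in YAP, beside 4.06% and 1.26% of all genes. None lay above 1, and the medians were −0.685 and −0.27. Tapbp, the tapasin that loads peptides onto class I molecules, read 8.80 in control, 6.885 in mtYAP and 7.63 in YAP, differences of −1.915 and −1.17. Psmb10, the third inducible proteasome subunit, read 7.65, 5.89 and 6.70, differences of −1.76 and −0.95, and so lay further from control than Psmb8 and Psmb9. The other gene was Erap1, a peptidase that trims peptides, at −1.205 in mtYAP with levels under 6. Calr, calreticulin, stood at −0.91 and −0.77, and Tap2, the partner of Tap1, at −0.73 and 0.00.

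Of 52 further interferon-stimulated genes, 5 lay below −1 in mtYAP and 1 above 1, beside 4.06% and 3.77% of all genes. In YAP 1 lay on either side, beside 1.26% of all genes below −1 and 1.36% above 1. The medians of the list were −0.20 in mtYAP and −0.07 in YAP. The 5 below −1 in mtYAP were Ifitm2, Lgals3bp, Nmi, Trim34a and Ifi27l2a. Ifitm2, a relative of Ifitm3, read 10.6, 9.21 and 10.24 (−1.39 in mtYAP). Lgals3bp, a secreted glycoprotein, stood at −1.38 and Nmi, which binds STAT factors, at −1.10. Trim34a stood at −1.07 with levels under 6, and Ifi27l2a at −1.04. Above 1 was Pnpt1, a mitochondrial RNA-degrading enzyme, at 1.07. In YAP these were Lgals3bp at −1.10 and Plac8 at 1.10. Ifitm2 and Ifitm3 therefore differed in mtYAP, at −1.39 and 0.09. The medians of the 32 members were −0.46 and −0.20.

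**Figure D4:**
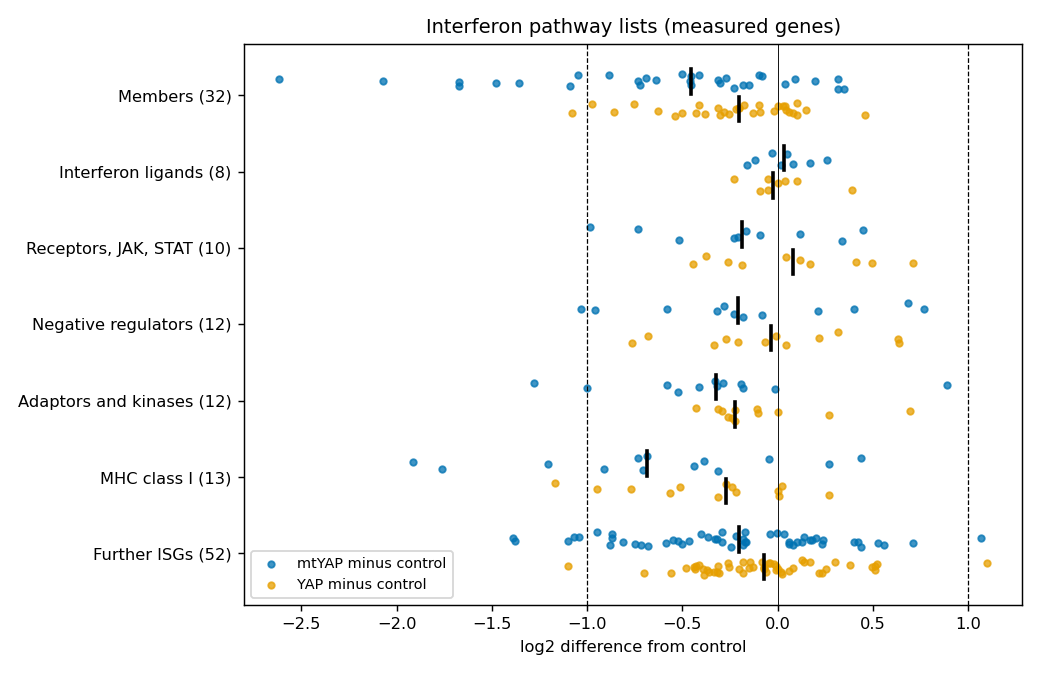
Log2 difference from control (horizontal axis) of the measured genes of the member list and of 6 further lists of the interferon pathway, with mtYAP in blue, YAP in orange, the median of each as a black bar and dashed lines at −1 and 1. The vertical spread within a row has no meaning. The median in mtYAP is −0.46 for the members, 0.035 for the interferon genes and −0.685 for MHC class I.

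As to the arrays as a whole, the medians over all genes were between 4.90 and 4.91. Of 7 housekeeping genes 1 lay above 1 in mtYAP (Hprt, 1.22) and 1 below −1 (Gusb, −1.10), beside 3.77% and 4.06% of all genes. The medians of the housekeeping genes were 0.03 for mtYAP and −0.01 for YAP. A free-text label of the control refers to another cell type, embryonic stem cells. Of 10 pluripotent cell markers 1, Dppa4, lay above 1 in mtYAP (1.47), beside 3.77% of all genes. None of the 10 reached a level of 6 on any array, with summed log2 levels from 30.6 to 33.1. Of 14 leukocyte markers, cells that express many members, none reached it either, with sums from 55.0 to 56.3, which were nearly level over the arrays. The log2 scale has no true 0. All 12 fibroblast markers reached 6 on at least 1 array, but 6 lay below −1 in mtYAP and 3 in YAP, their sums being 126.6 in control, 107.6 in mtYAP and 120.3 in YAP. Lum and Dcn stood furthest, at −4.69 and −4.47 in mtYAP. In mtYAP 11 of the 12 lay below control, beside 46.5% of all genes, the exception being Twist1 at 0.67. In YAP Col3a1 (0.72), Vim (0.17) and Twist1 (0.07) lay above control. Their part in the values of the members was not tested.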

How the data were processed

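The deposited values are log2 levels per probe set. The authors used R to subtract background and normalize by robust multiarray analysis, and affy is named besides RMA in the submitters' processing notes. No version is given in the sources used here. Whether further arrays went into the normalization is unknown. Such normalization pulls the arrays to one distribution, so differences are relative to the other genes. The values, rounded to 2 decimals, were used as they stand.

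Gene names came from the platform annotation, which is old, and probe sets naming 1 gene were averaged per gene. All 32 measured members were found in RefSeq (GRCm38.p6) by Entrez identifier under the same symbol. Differences were taken between arrays and counted beyond 1 and −1 over all 18193 genes. The members, limits, lists and motifs were chosen with earlier results of these data known, and the lists were written from general knowledge. All members are named, with up to 4 genes of each other pathway list that had the largest difference in mtYAP among genes reaching a level of 6, and the genes behind counts of 5 or fewer. Ifnb1, Ifng, Ifnar2, Ifngr1, the genes named as not measured and the fibroblast markers fall outside this rule or were picked with their values in view. The depth of an array is not a count, and the number of arrays limits the precision. Simulated data with planted differences were used to test the counting. Alternatives were another choice of probe sets, other level and difference limits, and removal of the median or of a loess (span 0.3). Python 3.11.15 with numpy 2.4.6, pandas 2.3.3, statsmodels 0.14.6 and matplotlib 3.10.9 was used.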

Additional observations from a re-analysis of the deposited data

How the results depend on the processing

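The 8 members below −1 in mtYAP were the same genes after removal of the median difference or of a loess and with probe sets of several genes kept. With the probe set of the highest mean level, 7 of them remained, without Stat2 and with Parp14 added, and without probe sets of the _s, _x and _a kinds 7 of 24 measured members remained, Irf1 having none left. The count was 5 among members with a level of at least 6 and 13 at a limit of 0.5, and the median became −0.73 over members with a level of at least 6 and −0.72 over those with at least 5. Gbp2 and Dtx3l passed both levels through their control and YAP arrays and not through mtYAP. The count and medians over members chosen by level therefore lend no support. For YAP, the count below −1 was 2 with the probe set of the highest mean level, with any probe set passing and with probe sets taken singly, the second being of Parp14. It was 0 among members with a level of at least 6 or 5, and 6 at a limit of 0.5. No member lay above 1 in mtYAP or YAP under any alternative that kept this limit, nor above 0.5 at the lower limit, and no called member changed sign. For single values, a move was set against the median SD between probe sets of a gene (0.22 in mtYAP and 0.18 in YAP), which is not an error between replicates. No paired analysis was possible because there is 1 array per condition, and the control array, shared by both comparisons, cannot be left out.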
